A study of Mus musculus with 24 samples.

Results

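The ovaries of mice that had received ABT263 were compared 3 months after the end of treatment (9 months of age) with ovaries collected when treatment had just ended (6 months of age). These 6 libraries, 3 at each age and each from the ovary of a separate mouse, are those of the 24 in the series whose labels give ABT263 treatment. The mice were C57BL/6J females that the study dosed by gavage with 50 mg/kg of ABT263 a day for 7 days, followed by 21 days without drug, for 3 months from 3 months of age. Both groups therefore carry the same treatment, and the 9-month mice were in addition older, further from the last dose and, as the study describes, housed with males for a fertility assay between the ages compared, so age, time since dosing and housing cannot be told apart. The natural aging ovaries at 6 and 9 months, which share no library with the treated ones, served as the same interval without ABT263. The labels do not settle whether these mice received vehicle or were housed with males. In a difference between the intervals, ABT263, vehicle and housing therefore cannot be told apart. The estrous stage at collection was not given. Total counts ranged from 16361877 to 19279896 in the 6-month and from 16776567 to 17121630 in the 9-month treated ovaries. The markers of the ovary were present in every treated library, with summed levels of the oocyte markers from 345 to 858 CPM (read counts scaled to a common library size, with TMM normalization) and of the granulosa cell markers from 3931 to 7019 CPM.

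ABT263 (navitoclax) blocks the anti-apoptotic proteins BCL-2, BCL-XL and BCL-W, on which many senescent cells depend for survival. Senescent cells leave the cell cycle and secrete cytokines, proteases and growth factors, together called the senescence-associated secretory phenotype (SASP). In the ovary, oocytes sit in follicles of granulosa and theca cells, and the stroma around them holds fibroblasts, vessels and resident macrophages, which clear the remains of degenerating follicles and corpora lutea. The RNA of a whole ovary mixes these cells, so fewer cells of a type cannot be told apart from less RNA in each cell.

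No gene passed an adjusted p of 0.05 in edgeR among the 17037 tested, and the gene lists differed in the direction of their members. Most macrophage, lysosome and phagocytosis genes were higher at 9 months, as were several SASP and matrix genes. The lysosome list was put together after the values were seen, so its direction is no support, and the summed level of the phagocytosis list overlapped. Oocyte, DNA replication and chromosome segregation genes were mostly lower. Of all genes tested, 937 were higher at an unadjusted p under 0.05 (5.5%) and 954 lower (5.6%). DESeq2 called 217 genes higher (1.27%) and 197 lower (1.16%) on the same libraries. The smallest adjusted p in edgeR was 0.0688, shared by Lgals3, Lyz2 and Fbxl22, and 136 genes were under 0.2. The count in edgeR changed with the libraries and the settings. Without the second 9-month ovary 133 genes were called (48 higher and 85 lower), and 540 without a low-count filter. The 3 ovaries at 9 months did not overlap with the 3 at 6 months in 1280 genes that were higher (7.51% of all genes tested) and in 1319 that were lower (7.74%). In a principal component analysis of the 6 libraries, the first component (33.7% of the variance) placed the 6-month ovaries between -29.1 and -20.8 and the 9-month ovaries at 50.4, 4.55 and 23.6. On this component the 9-month ovaries were the more spread out of the groups, and the first of them lay farthest from the 6-month ovaries. The second component (27.5%) spread the ovaries within each age, from -24.6 to 22.2 at 6 months and from -39.9 to 38.3 at 9 months. In log2 CPM the second 9-month ovary correlated at 0.979, 0.975 and 0.969 with the 6-month ovaries, and at 0.973 and 0.967 with the other 9-month ovaries.

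Among the genes higher at 9 months, several of those with the smallest p were macrophage genes. Lyz2 (ENSMUSG00000069516, chromosome 10 from 117277331 to 117282321 of GRCm38), which encodes the lysozyme of macrophages and other myeloid cells, had 171, 187 and 152 CPM at 6 months and 425, 352 and 435 CPM at 9 months. The groups did not overlap (log2 fold change 1.25, SE 0.13, edgeR adjusted p = 0.0688). Lgals3 (ENSMUSG00000050335, chromosome 14 from 47367751 to 47386160), which encodes galectin-3, a lectin of phagocytes that also marks damaged lysosomes, had 43.2, 42.4 and 29.4 CPM at 6 months and 114, 122 and 103 CPM at 9 months (log2 fold change 1.56, SE 0.16, edgeR adjusted p = 0.0688). Every 9-month ovary held more than every 6-month ovary for both genes. Cd68, a glycoprotein of macrophage lysosomes, had 24.1, 28.7 and 21 CPM at 6 months and 44.9, 57.3 and 48.0 CPM at 9 months (log2 fold change 1.03, SE 0.15, edgeR adjusted p = 0.188). Mpeg1, the pore-forming perforin-2 of macrophages, was higher by 0.95 on the log2 scale, Tyrobp, the adaptor of activating myeloid receptors, by 0.98, and Lcp1, the actin-bundling L-plastin of leukocytes, by 0.67, with an adjusted p of 0.188 for each of these 3 genes. The other genes with the smallest p on the higher side were Tnfaip2, a gene induced by tumor necrosis factor (1.16), Ctsh, the protease cathepsin H (0.71), Fbxl22, an F-box protein (1.01), and Atp12a, a potassium pump, which had 0.299, 0.211 and 0.355 CPM at 6 months and 9.82, 6.87 and 2.11 CPM at 9 months. In natural aging ovaries Atp12a ranged from 2.18 to 14.8 CPM at 6 months and from 0.216 to 22.9 CPM at 9 months. In the treated ovaries Atp12a lay under the low-count cut (0.588 CPM, 10 counts in a library of median size) at 6 months and was tested only because of its 9-month values.

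**Figure D1:**
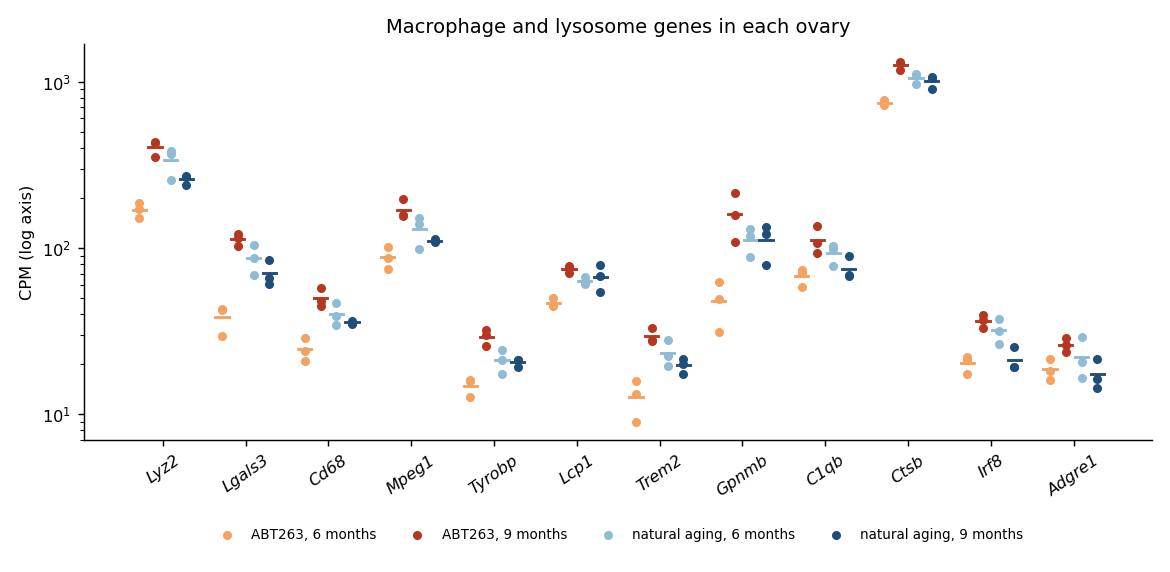
CPM (log axis) of 12 macrophage and lysosome genes in each ovary, treated and natural aging, with a line at each group mean. The treated 9-month ovaries lie above the treated 6-month ovaries for each gene, and Lyz2 spans 152 to 187 CPM at 6 and 352 to 435 CPM at 9 months.

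Of the 19 macrophage markers tested, 18 were higher at 9 months and 1 lower, with a median log2 fold change of 0.49 against 0.0094 over all genes tested, of which 51.5% were higher and 48.5% lower. At an unadjusted p under 0.05, 11 were higher and 0 lower, and 8 were called by DESeq2. The markers summed to 633, 715 and 622 CPM at 6 months and to 1154, 1238 and 1228 CPM at 9 months. The receptor Trem2 had 13.2, 15.9 and 8.97 CPM at 6 months and 27.9, 32.9 and 27.5 CPM at 9 months and Gpnmb, a glycoprotein of lipid-laden macrophages, 49.5, 62.6 and 31.3 CPM at 6 months and 157, 214 and 108 CPM at 9 months. The C1q chains, which macrophages secrete to start the classical complement pathway, were higher by 0.54 (C1qa), 0.72 (C1qb) and 0.69 (C1qc) on the log2 scale. Adgre1, which encodes the F4/80 antigen, was higher by 0.49 and did not overlap between the groups, whereas Cd163, a scavenger receptor of resident macrophages, had 6.47, 5.37 and 5.07 CPM at 6 months and 4.76, 8.0 and 2.79 CPM at 9 months and overlapped. Timd4 and Vsig4 were too low to test. Without each ovary in turn, 17 to 19 of the 19 markers were higher and the median ranged from 0.39 to 0.59.

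The interval had another course in natural aging, where the macrophage markers summed to 1054, 882 and 1075 CPM at 6 months and to 814, 879 and 794 CPM at 9 months, with a median log2 fold change of -0.27. There 1 marker was higher and 18 were lower, but at an unadjusted p under 0.05 only 1 was higher and 2 lower. Of all genes in natural aging, 5.98% were higher and 4.22% lower at that p. The difference between the intervals (the interaction term of one fit of 12 ovaries) had an unadjusted p under 0.05 in 12 of the 19 markers, each higher in the treated interval, against 3.37% of all genes. It was 1.62, SE 0.21, edgeR adjusted p = 0.112 for Lyz2 and 1.87, SE 0.26, edgeR adjusted p = 0.112 for Lgals3, so that neither passed the threshold. Irf8, a transcription factor of the myeloid lineage, had a log2 fold change of 0.85 in treated and of -0.59 in natural aging ovaries (difference 1.44, SE 0.22, edgeR adjusted p = 0.196). The treated 6-month ovaries were those with the lowest macrophage levels of the 4 groups for Lyz2, Lgals3 and Cd68.

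The lysosome genes, a list of 50 put together after the values were seen, were higher in 46 and lower in 4, with a median of 0.31. At an unadjusted p under 0.05, 23 were higher and 1 lower, and DESeq2 called 13 higher. Ctsb, cathepsin B, had 719, 771 and 740 CPM at 6 months and 1293, 1312 and 1176 CPM at 9 months (log2 fold change 0.76, SE 0.12, edgeR adjusted p = 0.188), and Ctsd, cathepsin D, had 285, 354 and 374 CPM at 6 months and 521, 522 and 573 CPM at 9 months. Ctss, the cathepsin of antigen-presenting cells, was higher by 1.10 and Slc11a1, a metal transporter of phagosomes, by 1.15. Ctsl, cathepsin L, went the other way, with 968, 820 and 923 CPM at 6 months and 681, 744 and 683 CPM at 9 months. In natural aging the list had a median of 0.12. With the macrophage markers taken out, 44 of 48 lysosome genes were higher and the median was 0.29.

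Promoters are shown for genes of these and later lists, to let a reader see the letters behind the motif counts; they are the 250 bases before and 50 after a start site, from RefSeq on GRCm38.p6, with matches in capitals. Searched on both strands, GAGGAA, the core letters of sites bound by the myeloid factor PU.1, was in the promoters of 11 of the 17 macrophage markers with a sequence (64.7%) and of 31.3% of all 27025 genes with one. CACGTG, the E-box in sites of the lysosome regulator TFEB and of the clock factors, was in 13 of 41 lysosome genes (31.7%) and in 8.09% of all genes. The motif searches for the macrophage, lysosome, oocyte and DNA replication genes were chosen after the values were seen, and a match is a description of letters and no evidence of binding.
Cd68 (chr11:69666121-69666420, minus strand): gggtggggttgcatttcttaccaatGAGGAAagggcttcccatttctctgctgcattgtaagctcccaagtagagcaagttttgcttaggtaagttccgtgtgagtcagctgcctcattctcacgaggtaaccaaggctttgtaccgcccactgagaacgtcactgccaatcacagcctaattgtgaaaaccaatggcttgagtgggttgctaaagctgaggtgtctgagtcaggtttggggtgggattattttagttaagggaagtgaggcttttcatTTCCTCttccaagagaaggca
Trem2 (chr17:48346151-48346450, plus strand): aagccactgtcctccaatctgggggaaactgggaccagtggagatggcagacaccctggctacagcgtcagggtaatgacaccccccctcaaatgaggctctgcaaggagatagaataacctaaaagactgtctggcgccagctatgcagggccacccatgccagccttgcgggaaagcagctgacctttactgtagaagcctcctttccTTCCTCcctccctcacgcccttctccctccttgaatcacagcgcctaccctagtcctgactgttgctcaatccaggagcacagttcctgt
Ctsd (chr7:142387778-142388077, minus strand): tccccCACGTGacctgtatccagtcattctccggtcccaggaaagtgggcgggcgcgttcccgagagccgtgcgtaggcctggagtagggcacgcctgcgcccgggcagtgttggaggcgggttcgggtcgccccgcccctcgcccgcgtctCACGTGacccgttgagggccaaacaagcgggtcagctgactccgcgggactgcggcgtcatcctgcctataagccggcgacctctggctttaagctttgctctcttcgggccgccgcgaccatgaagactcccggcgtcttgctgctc
Zp3 (chr5:135979855-135980154, plus strand): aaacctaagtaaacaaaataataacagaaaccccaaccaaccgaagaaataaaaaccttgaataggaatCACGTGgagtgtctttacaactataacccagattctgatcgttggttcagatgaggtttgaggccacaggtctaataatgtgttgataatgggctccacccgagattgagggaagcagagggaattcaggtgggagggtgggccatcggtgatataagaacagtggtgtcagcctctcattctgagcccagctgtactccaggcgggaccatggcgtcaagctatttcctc
Espl1 (chr15:102296043-102296342, plus strand): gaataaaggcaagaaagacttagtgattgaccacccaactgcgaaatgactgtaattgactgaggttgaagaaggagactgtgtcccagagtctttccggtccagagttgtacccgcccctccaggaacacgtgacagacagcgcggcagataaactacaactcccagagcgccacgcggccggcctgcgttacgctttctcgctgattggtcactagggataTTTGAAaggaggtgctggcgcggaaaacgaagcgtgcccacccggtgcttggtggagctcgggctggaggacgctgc

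Phagocytosis receptors and their signaling were higher in 23 of 28 genes (12 at an unadjusted p under 0.05 and 0 lower), with a median of 0.44, and complement genes in 16 of 19 (9 and 0), with a median of 0.35. Itgb2, the beta chain of leukocyte integrins including the complement receptor CR3, had 14.4, 18.4 and 12.5 CPM at 6 months and 30.0, 45.6 and 29.4 CPM at 9 months, and C3ar1, the receptor of the complement fragment C3a, was higher by 0.67 on the log2 scale. C3, the central complement protein, had 35, 43.6 and 35.7 CPM at 6 months and 296, 73.2 and 76.4 CPM at 9 months, with 1 ovary of 9 months far above the rest. The lists share members with the macrophage markers; without these, the medians were 0.42 for phagocytosis and 0.23 for complement. The summed level of the phagocytosis list overlapped, with 3215, 2844 and 2735 CPM at 6 months and 2378, 3814 and 2608 CPM at 9 months. The difference between the treated and natural aging intervals had an unadjusted p under 0.05 in 12 phagocytosis genes that were higher and 1 lower. Of all genes, 3.37% were higher and 3.97% lower at that p.

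Among the SASP factors that the study selected, 17 of 20 tested were higher at 9 months and 3 lower, with a median log2 fold change of 0.45 (natural aging -0.10). At an unadjusted p under 0.05, 7 were higher and 0 lower, and DESeq2 called 5. Since the list was chosen by the study on ovaries that include these, it is not independent evidence of a direction. The chemokine Ccl3 had 0.479, 0.421 and 0.507 CPM at 6 months and 1.94, 1.86 and 2.11 CPM at 9 months (log2 fold change 2.05, SE 0.33, edgeR adjusted p = 0.188), and Ccl2, which attracts monocytes, had 1.38, 0.685 and 0.557 CPM at 6 months and 3.18, 5.52 and 2.05 CPM at 9 months (log2 fold change 2.05, SE 0.49, edgeR adjusted p = 0.211). Both were low in every ovary, and the groups did not overlap. Ccl3 lay under the low-count cut in each 6-month ovary, so it was tested only because of its 9-month values and had to differ, and Ccl2 and Il1a lay under it in some 6-month ovaries. Among the 17 factors with at least 10 counts in every ovary, 15 were higher and 2 lower, with 6 higher at an unadjusted p under 0.05 and a median of 0.40.

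The TNF receptor Tnfrsf1b had 58.6, 57.6 and 51.3 CPM at 6 months and 98.1, 95.2 and 72.8 CPM at 9 months and the growth factor Pdgfa 26, 24.9 and 19.4 CPM at 6 months and 53, 36.8 and 33.2 CPM at 9 months. The urokinase receptor Plaur was higher by 1.04 and the cytokine Il1a by 1.45, at levels of at most 1.63 CPM for Il1a. Ccl8 (0.72) and Tnfrsf1a (0.30) also had groups without overlap, although Ccl8 had an unadjusted p of 0.0597. Timp1, an inhibitor of matrix proteases, overlapped with 85.1, 26.2 and 29.2 CPM at 6 months and 175, 43.9 and 65.3 CPM at 9 months. The values were 0.52 for Igfbp4, 0.50 for Fgf2, 0.40 for Icam1, 0.27 for Timp2, 0.26 for Axl, 0.17 for Cxcl10, 0.10 for Kitl, 0.06 for Tnfrsf18, -0.03 for Igfbp3, -0.04 for Mmp9 and -0.48 for Il1b, with overlap in each. Without the first 9-month ovary Timp1 was at 0.23, Igfbp4 at 0.17 and Fgf2 at 0.13. Mmp3 was too low to test, and Il6, which the study measured by real-time PCR, was not in the list of SASP factors. The median was 0.22 without the first 9-month ovary. The difference between the intervals had an unadjusted p under 0.05 in 6 of the factors, higher in the treated interval in each. Of all genes, 3.37% were higher at that p. For Ccl3, to which the limit of the low-count cut also applies, the difference was 3.04 (SE 0.62, edgeR adjusted p = 0.291). Cytokines and chemokines as a wider list were higher in 23 of 29 (8 at an unadjusted p under 0.05), with a median of 0.29, or 0.13 without the second and 0.44 without the first 9-month ovary. Of these 29, 8 lay under the low-count cut in at least 1 ovary of 6 months.

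**Figure D2:**
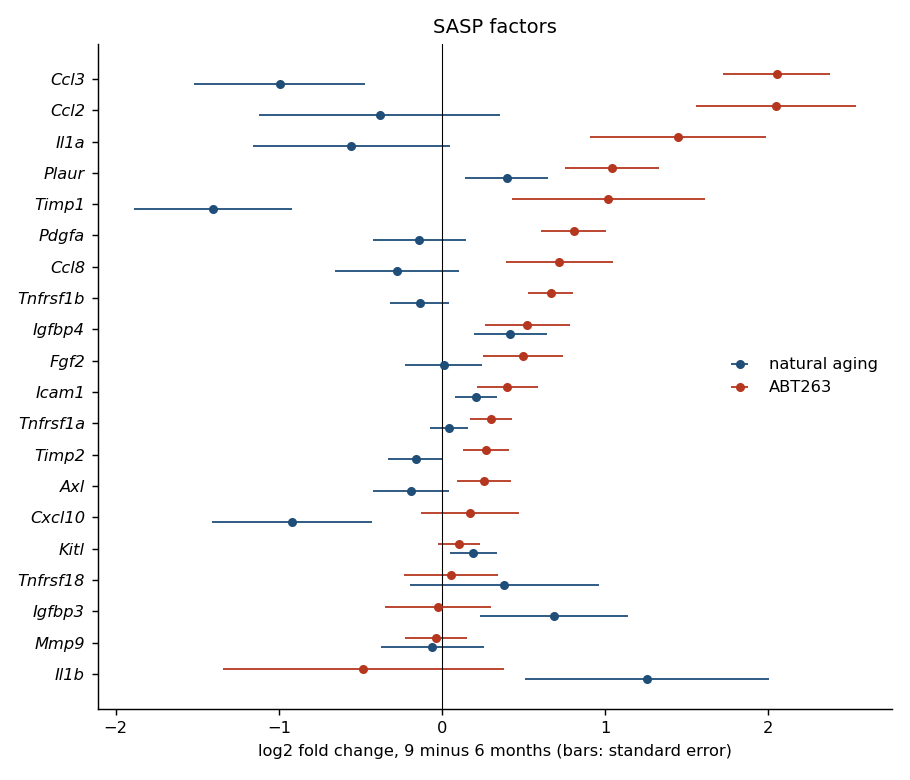
Log2 fold change between 6 and 9 months (x axis, bars show the standard error) of each SASP factor in ABT263-treated and in natural aging ovaries. In the treated ovaries 17 of the 20 factors lie above 0, and Ccl3 and Ccl2 lie highest.

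Matrix glycoproteins and remodelling enzymes were higher in 29 of 34 genes, with 15 higher and 2 lower at an unadjusted p under 0.05 and a median of 0.55 (natural aging -0.15). The macrophage elastase Mmp12 had 8.98, 10.3 and 6.18 CPM at 6 months and 14.1, 52.3 and 17.6 CPM at 9 months, and Mmp2 had 138, 148 and 124 CPM at 6 months and 258, 180 and 168 CPM at 9 months. Postn, periostin of fibroblasts, had 10.4, 12.0 and 6.48 CPM at 6 months and 19.1, 73.6 and 17.5 CPM at 9 months, and Spp1, osteopontin, had 15.9, 4.64 and 4.81 CPM at 6 months and 152, 23.9 and 17.9 CPM at 9 months. A single 9-month ovary was far above the others in both, the first for Spp1 and the second for Postn. Mmp19 was higher by 1.30 and Tnc, tenascin C, by 0.94 on the log2 scale. Lower were Adamts5 (-0.73), a protease of versican, and Thbs1 (-0.47), thrombospondin 1 of granulosa cells and vessels. Among 22 collagens, 15 were higher and 7 lower, with 7 higher and 1 lower at an unadjusted p under 0.05. Col1a1, of the main fibrillar collagen, had 425, 377 and 301 CPM at 6 months and 999, 566 and 546 CPM at 9 months, Col3a1 was higher by 0.78, and Col5a3 by 1.33, whereas Col11a1 had 137, 141 and 85.4 CPM at 6 months and 54.1, 60.4 and 34.9 CPM at 9 months. The collagen median of 0.26 became 0.04 without the first 9-month and 0.15 without the third 6-month ovary, and the number higher at an unadjusted p under 0.05 was 2 without the third 6-month ovary, 4 without the first 9-month or the second 6-month ovary and 11 without the second 9-month ovary. The matrix median became 0.27 without the first 9-month ovary, and 9 genes were higher at that p without the second or the third 6-month ovary. The markers of stromal fibroblasts, which include Col1a1 and Col3a1, were higher in 10 of 15 (5 at that p, with 0 lower at it), and summed to 3769, 3540 and 3226 CPM at 6 months and to 6640, 4754 and 3982 CPM at 9 months, without overlap. Their median was 0.16, or 0.05 without the first and 0.37 without the second 9-month ovary, and their part in the matrix and collagen values was not tested.

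On the lower side, the oocyte genes differed in 1 direction. All 28 tested were lower at 9 months, 25 at an unadjusted p under 0.05 and 18 in DESeq2, and in 26 the groups did not overlap. The median log2 fold change was -0.98, and the summed level was 829, 858 and 750 CPM at 6 months and 392, 566 and 345 CPM at 9 months. Gdf9 (ENSMUSG00000018238, chromosome 11 from 53431023 to 53437904), the growth factor by which oocytes direct granulosa cells, had 84.4, 92.7 and 77.2 CPM at 6 months and 37.1, 54.2 and 32.8 CPM at 9 months (log2 fold change -1.04, SE 0.19, edgeR adjusted p = 0.188), and its partner Bmp15 had 35.2, 35.7 and 31.4 CPM at 6 months and 12.7, 23 and 12.2 CPM at 9 months. The zona pellucida genes Zp1, Zp2 and Zp3, which encode the egg coat, had log2 fold changes of -0.99, -0.94 and -0.98. Nobox, Sohlh1 and Lhx8, transcription factors of early oocytes, had log2 fold changes of -1.03, -1.38 and -0.91, and Bcl2l10, an anti-apoptotic BCL-2 relative of oocytes, had 22.7, 27.2 and 19.4 CPM at 6 months and 9.06, 12.6 and 7.44 CPM at 9 months. Ddx4, a germ cell helicase, overlapped (-0.32). The E-box CACGTG, seen in capitals in the Zp3 promoter, was in 4 of the 19 oocyte genes with a promoter sequence (21.1%).

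Oocyte genes were lower over the interval in natural aging too, with a median of -0.61 and summed levels of 602, 529 and 546 CPM at 6 months and 400, 263 and 511 CPM at 9 months. Only 1 of the oocyte genes had an unadjusted p under 0.05 for the difference between the intervals (3.97% of all genes were lower at that p), and for Gdf9 the difference was -0.35, SE 0.36, edgeR adjusted p = 0.91. The treated 6-month ovaries had the higher start, and the ovaries of 9 months overlapped between the treatments. Without each ovary in turn, all 28 remained lower, 21 to 25 of them at an unadjusted p under 0.05. Without the second 9-month ovary, 15 of the oocyte genes passed an adjusted p of 0.05 in edgeR.

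**Figure D3:**
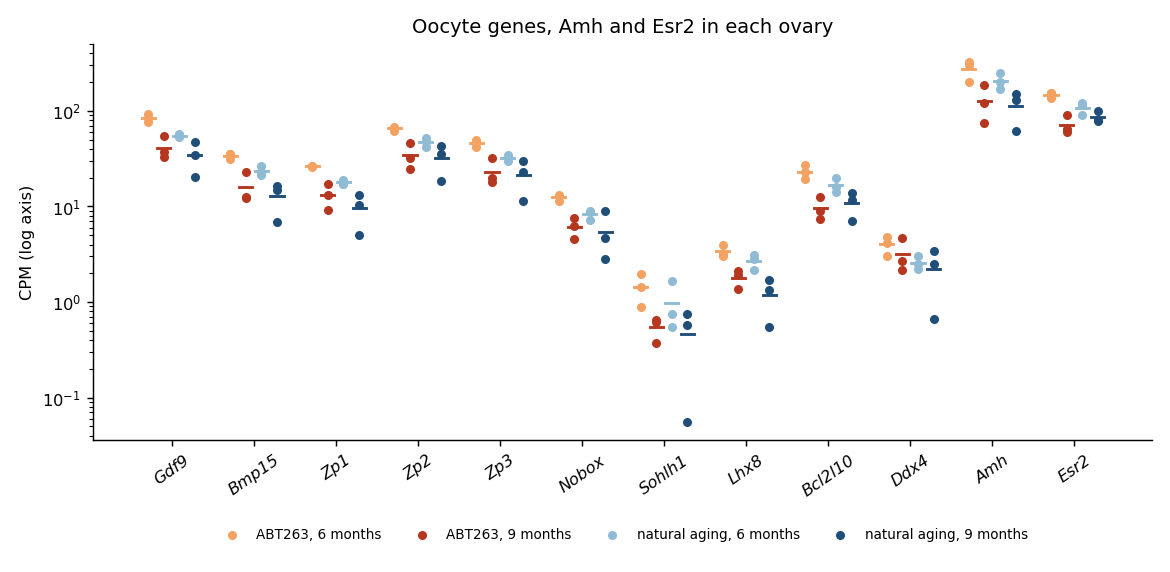
CPM (log axis) of 10 oocyte genes and of the granulosa cell genes Amh and Esr2 in each ovary, with a line at each group mean. The treated 9-month ovaries lie below the treated 6-month ovaries except in Ddx4, with 32.8 to 54.2 CPM of Gdf9 at 9 months against 77.2 to 92.7 CPM at 6 months.

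Granulosa cells gave a mixed picture, with 7 of 19 markers higher and 12 lower (1 and 4 at an unadjusted p under 0.05). Esr2 (ENSMUSG00000021055, chromosome 12 from 76120419 to 76177259), the estrogen receptor beta of granulosa cells, had 156, 137 and 153 CPM at 6 months and 64.6, 90.5 and 59.6 CPM at 9 months (log2 fold change -1.05, SE 0.16, edgeR adjusted p = 0.188). Amh, the anti-Mullerian hormone of small growing follicles, had 304, 326 and 201 CPM at 6 months and 121, 187 and 75.1 CPM at 9 months (log2 fold change -1.12, SE 0.32, edgeR adjusted p = 0.266), and Slc18a2 was lower by a log2 value of -1.01. Gatm was higher by 0.38. In natural aging the values were -0.86 for Amh, -0.86 for Slc18a2, -0.34 for Esr2 and -0.32 for Gatm. The difference between the intervals was -0.27 for Amh (SE 0.50, edgeR adjusted p = 0.964). Without the second 9-month ovary, 4 granulosa cell markers were higher and 15 lower, 10 of them at an unadjusted p under 0.05. Among the TGF-beta family, 2 were higher and 7 lower at that p, 3 and 13 without the second 9-month ovary, and 0 and 6 without the first; beside Gdf9 and Bmp15, the inhibitory Smad6 and Smad7 had values of -0.84 and -0.77, and their difference from natural aging was -1.13, SE 0.25, edgeR adjusted p = 0.291 for Smad7. The other genes with the smallest p on the lower side were Smtnl2 (-1.02), related to smoothelin, Clca3a1 (-0.79), Aass (-1.40), an enzyme of lysine breakdown, Atoh8 (-0.96), a transcription factor, Itga2 (-0.85), an integrin that binds collagen, Rapgef4 (-1.06), a cAMP sensor, and Derl3 (-1.11), of protein degradation in the endoplasmic reticulum, each with an adjusted p of 0.188 in edgeR and without overlap. In natural aging their values were, in the same order, -0.19, 0.11, 0.31, 0.12, 0.35, -0.03 and -0.73.

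Proliferation genes were lower. In DNA replication 44 of 45 genes were lower, 20 at an unadjusted p under 0.05, with a median of -0.36 (natural aging -0.15), and in chromosome segregation 45 of 47 were lower, 15 at that p, with a median of -0.30 (natural aging -0.18). Mcm6, a subunit of the replicative helicase, had 119, 125 and 99.3 CPM at 6 months and 70.8, 84.6 and 75.5 CPM at 9 months (log2 fold change -0.57, SE 0.12, edgeR adjusted p = 0.195). Uhrf1, which couples DNA methylation to replication, was lower by a log2 value of -0.65, the ligase Lig1 of -0.51 and the polymerase subunit Pold1 of -0.41. Birc5, survivin of the mitotic spindle, had -0.30, and Mki67 had 109, 113 and 81.5 CPM at 6 months and 101, 77.2 and 73.4 CPM at 9 months and overlapped. TTTGAA, the letters of the CHR element of mitotic genes, was in the promoters of 30 of 41 chromosome segregation genes (73.2%), the Espl1 promoter among them, of 4 of 36 DNA replication genes (11.1%) and of 20.2% of all genes. Without each ovary in turn, 43 to 45 of the DNA replication and 41 to 47 of the chromosome segregation genes were lower, but the number of chromosome segregation genes at an unadjusted p under 0.05 was 2 without the first or the second 6-month ovary, 6 and 7 without the third and the second 9-month ovary, and 28 without the third 6-month ovary. For DNA replication it was 9 without the second 6-month ovary and 12 without the first ovary of either age, and only 1 gene differed between the intervals at that p.

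Genes of mast cells were low, and the 5 that could be tested had higher values at 9 months. Of these, Cma1, Cpa3 and Fcer1a lay under the low-count cut in 1 or more 6-month ovaries and passed it through the 9-month ovaries, so their direction was largely fixed by that selection and the count supports nothing. The tryptase Tpsb2 had 0.718, 1.16 and 0.659 CPM at 6 months and 4.29, 4.51 and 2.85 CPM at 9 months (log2 fold change 2.19, SE 0.35, edgeR adjusted p = 0.188), above the cut in every ovary. The chymase Cma1 was at 2.65 and the protease Cpa3 at 2.09 on the log2 scale. Fcer1a, of the IgE receptor, had at most 1 count in each 6-month ovary and a mean of 0.705 CPM at 9 months, at least 3.84-fold higher than a floor of 3 counts per library. Hdc, which forms histamine, overlapped. In natural aging the 4 mast cell genes tested were higher too, with a median of 1.20. There Tpsb2 was at 1.00, Cma1 at 1.16 and Cpa3 at 1.24. Only 1 of the 5 genes had an unadjusted p under 0.05 for the difference between the intervals. For Tpsb2 the difference was 1.18, SE 0.62, edgeR adjusted p = 0.746. In the treated ovaries, 10 of 11 T cell markers were higher, but 4 of 11 without the second 9-month ovary. Of the B and plasma cell markers, 9 of 10 were higher. Under the low-count cut lay 4 T cell and 3 B and plasma cell markers in a 6-month ovary, and 3 and 4 in a 9-month ovary. The counts therefore rest in part on genes selected by that cut and support no direction. With at least 10 counts in every ovary, 6 of 7 T cell and 6 of 6 B and plasma cell markers were higher. Of these, 1 and 0 had an unadjusted p under 0.05. In these lists and those of NK cells, neutrophils and platelets, at most 1 gene had an unadjusted p under 0.05 and 0 were called by DESeq2. Cd3e, of the T cell receptor, had 1.44, 1.26 and 1.67 CPM at 6 months and 1.29, 2.53 and 0.682 CPM at 9 months, and Pecam1, of blood vessels, 83.5, 79.8 and 86.4 CPM at 6 months and 78.8, 71.4 and 95.1 CPM at 9 months.

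**Figure D4:**
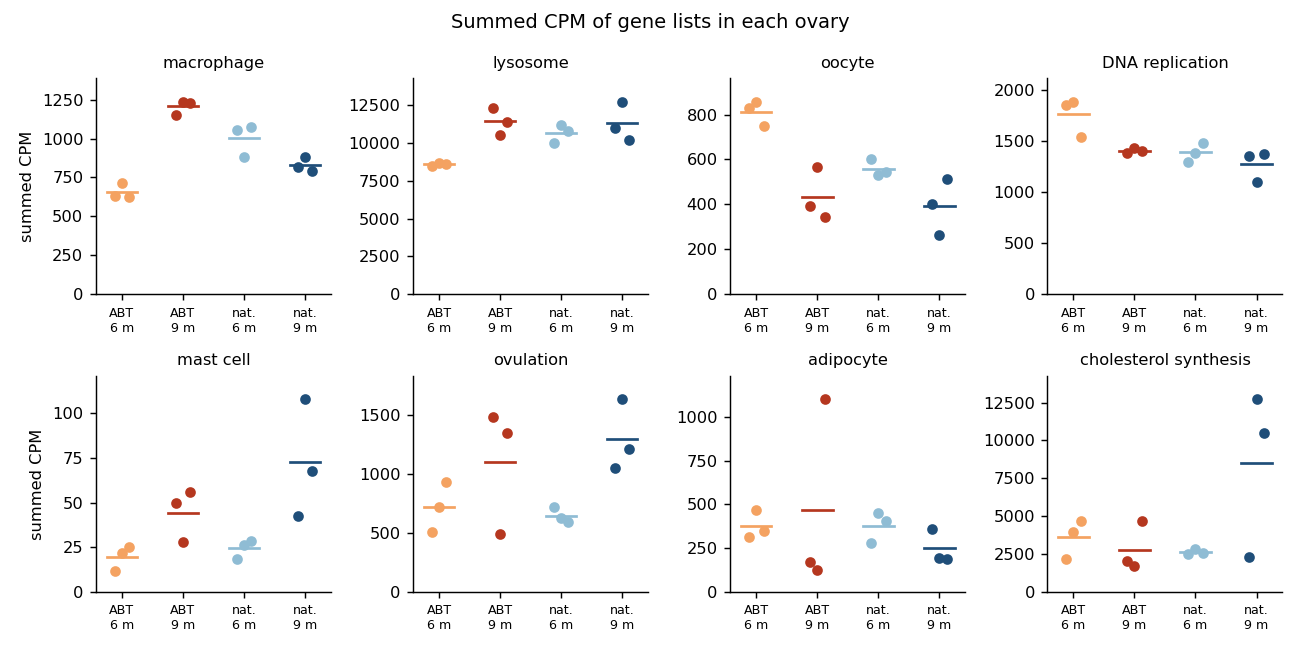
Summed CPM of 8 gene lists in each ovary, with a line at each group mean and axes that start at 0. The macrophage sum is 622 to 715 CPM in treated ovaries of 6 months and 1154 to 1238 CPM at 9 months, while the ovulation and adipocyte sums vary within the 9-month group, the latter with Plin4 at 1076 CPM in the third ovary.

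Within the 9-month group, the ovaries differed in hormone and ovulation genes. Adamts1, a protease induced at ovulation, had 57.1, 56.8 and 51.6 CPM at 6 months and 594, 60.4 and 81.2 CPM at 9 months, Edn2, the endothelin of follicle rupture, had 0.898, 0.896 and 0.811 CPM at 6 months and 6.76, 1.01 and 1.18 CPM at 9 months and Runx1 71.5, 48.9 and 37.9 CPM at 6 months and 258, 55.8 and 67.5 CPM at 9 months, so the first 9-month ovary stood apart in each. The estrogen-forming aromatase Cyp19a1 had 13.7, 18.4 and 24.3 CPM at 6 months and 14.5, 161 and 24.9 CPM at 9 months, high in the second ovary. Star, which brings cholesterol into mitochondria, had 417, 1639 and 2486 CPM at 6 months and 1146, 347 and 1469 CPM at 9 months, and Cyp11a1, which makes pregnenolone, 4130, 4849 and 7192 CPM at 6 months and 6546, 5072 and 10694 CPM at 9 months. Among adipocyte markers, the lipid droplet gene Plin4 had 284, 434 and 328 CPM at 6 months and 127, 52.8 and 1076 CPM at 9 months. Plin1, of the same family, had 23.5, 18.1 and 13.5 CPM at 6 months and 24.7, 49.3 and 15.9 CPM at 9 months, and Fabp4, of fat and endothelium, had 3.47, 6.11 and 3.50 CPM at 6 months and 19.6, 24.1 and 9.61 CPM at 9 months. Plin4 was thus highest in the third 9-month ovary and Plin1 and Fabp4 were lowest there among the 9-month ovaries. The part of these genes in the other results was not tested. Without the first 9-month ovary the median was 0.46 for the macrophage markers, 0.22 for the SASP factors, 0.27 for the matrix genes and 0.04 for the collagens.

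Clock genes differed in opposite directions at 9 months, with 5 of 19 higher and 5 lower at an unadjusted p under 0.05. The repressor gene Per3 (ENSMUSG00000028957, chromosome 4 from 151003652 to 151044665) had 99.2, 88.2 and 90.0 CPM at 6 months and 46.9, 60.4 and 45.4 CPM at 9 months (log2 fold change -0.86, SE 0.13, edgeR adjusted p = 0.188), Per1 had 94.2, 121 and 96.4 CPM at 6 months and 68.5, 78.2 and 71.7 CPM at 9 months, and Tef, an output factor, was lower by a value of -0.55. The activators Arntl (1.07), Npas2 (1.96) and Clock (0.40) were higher, and Npas2 had 1.32, 3.11 and 3.09 CPM at 6 months and 11.8, 4.73 and 13.1 CPM at 9 months. For Per1 the difference from natural aging was -1.11, SE 0.41, edgeR adjusted p = 0.557. The hour of collection was not given, and its part in these values was not tested. At an unadjusted p under 0.05, 3 were higher and 3 lower without the second 6-month ovary, and 6 and 8 without the second 9-month ovary. CACGTG was in 5 of 16 clock promoters (31.2%).

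Cholesterol synthesis genes had medians of opposite sign in the treated and natural aging intervals. In treated ovaries 9 of 25 genes were higher and 16 lower, 0 at an unadjusted p under 0.05 in edgeR and 0 called by DESeq2, with a median of -0.21, while natural aging ovaries had a median of 1.41. The difference had an unadjusted p under 0.05 in 13 genes, each lower in the treated interval, against 3.97% of all genes. Lss, lanosterol synthase, had 62.3, 125 and 138 CPM at 6 months and 41.5, 42.8 and 139 CPM at 9 months, a difference of -2.59, SE 0.86, edgeR adjusted p = 0.5, and Tm7sf2, a sterol reductase, a difference of -3.21, SE 0.88, edgeR adjusted p = 0.425. Hsd17b7, an enzyme of both cholesterol and luteal estradiol synthesis, had 208, 944 and 1625 CPM at 6 months and 53.9, 52.2 and 636 CPM at 9 months and Akr1c18, which inactivates progesterone, 49.8, 2.69 and 7.5 CPM at 6 months and 32.6, 49.8 and 66.3 CPM at 9 months. The natural aging sum was 2287, 12723 and 10481 CPM at 9 months, so 2 of those 3 ovaries were the high ones. Within the treated ovaries, 16 cholesterol genes were lower at an unadjusted p under 0.05 without the third 9-month ovary, and the median ranged from -0.72 to 0.06 with an ovary left out.

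Like every other gene tested, the genes of the ABT263 targets did not pass an adjusted p of 0.05 in edgeR. ABT263 acts on the proteins, which RNA levels do not measure. Bcl2 had 19.996, 17.2 and 13.6 CPM at 6 months and 20.5, 17.5 and 18.3 CPM at 9 months, Bcl2l1, which encodes BCL-XL, 62.4, 78.3 and 57.3 CPM at 6 months and 61.3, 76.2 and 81.2 CPM at 9 months, and Bcl2l2, which encodes BCL-W, 74.1, 78.2 and 88.5 CPM at 6 months and 86.4, 67.8 and 84.1 CPM at 9 months. The groups overlapped in each of these 3 genes. Of the 17 family members tested, 12 were higher and 5 lower, with a median of 0.07, and 1 in each direction had an unadjusted p under 0.05, namely Bcl2a1d (1.21), of leukocytes and with near-identical copies that could share its reads, and Bcl2l10. The copy Bcl2a1b was at 0.83. Of all genes tested, 5.5% were higher and 5.6% lower at an unadjusted p under 0.05. Without the second 9-month ovary 4 members were higher at that p, and the median ranged from 0.05 to 0.12 with an ovary left out. The other members lay at 0.06 for Mcl1, 0.07 for Bax, 0.20 for Bak1, -0.15 for Bok, -0.17 for Bid, -0.05 for Bad, 0.04 for Bik, 0.26 for Bmf, 0.44 for Bbc3, 0.59 for Pmaip1 and 0.03 for Bcl2l11.

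In natural aging, 1035 of 17322 genes tested were higher at an unadjusted p under 0.05 (5.98%) and 731 lower (4.22%), with 0 at an adjusted p of 0.05 in edgeR and 359 called by DESeq2. Across genes, the treated and natural aging intervals were only weakly related (Pearson r = 0.0973 and Spearman rho = 0.185 over 16745 genes, which are not independent). In the direct test of the difference, 0 of 18202 genes passed an adjusted p of 0.05 in edgeR, 613 were higher and 722 lower at an unadjusted p under 0.05, and DESeq2 called 52 higher (0.286%) and 47 lower (0.258%). The genes with the smallest p were, on the higher side, Lyz2, Lgals3, Irf8, Cd68 (1.19, SE 0.21, edgeR adjusted p = 0.291) and Ctsb (0.84, SE 0.16, edgeR adjusted p = 0.291). On the lower side they were Vwa5b1 (-2.15, SE 0.35, edgeR adjusted p = 0.241), Btbd16 (-3.32, SE 0.63, edgeR adjusted p = 0.291), Ppp1r16b (-1.06, SE 0.21, edgeR adjusted p = 0.291), an inhibitor of protein phosphatase in endothelium, Atoh8 (-1.08, SE 0.21, edgeR adjusted p = 0.291) and Vnn1 (-2.20, SE 0.47, edgeR adjusted p = 0.291), a pantetheinase. With 3 ovaries against 3, an exact permutation test of a single gene cannot give a p below 0.1.

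**Figure D5:**
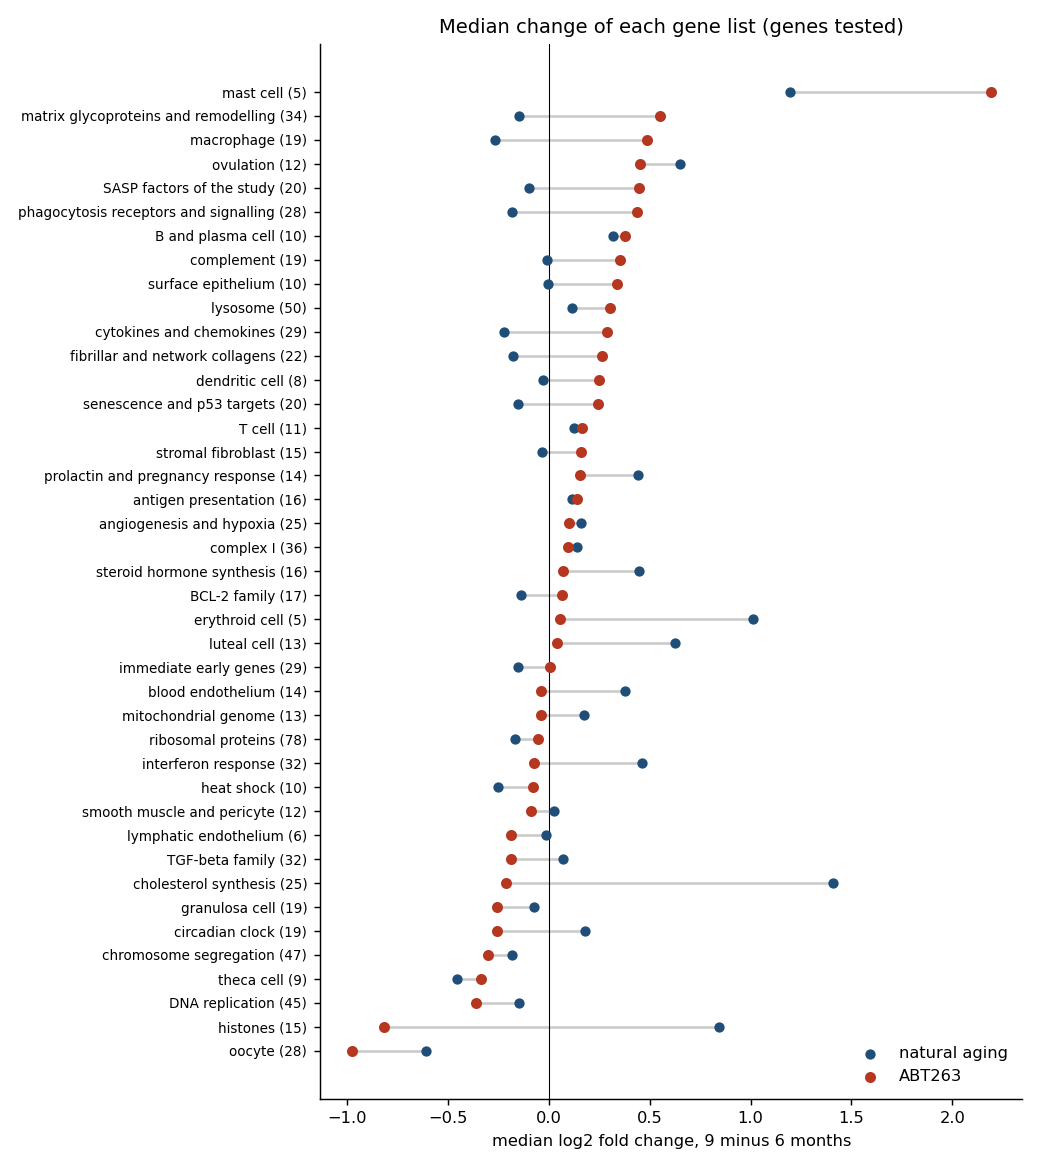
Median log2 fold change between 6 and 9 months (x axis) of each gene list with 5 or more genes tested, in ABT263-treated and natural aging ovaries, with the number of genes tested in parentheses. Macrophage, phagocytosis and matrix lists lie above 0 in treated and below 0 in natural aging ovaries, and the oocyte list lies lowest in both.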

How the data were processed

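The mRNA of 24 mouse ovaries, 3 mice per group, was sequenced, and the 6 ABT263-treated libraries are described with the 6 natural aging libraries of the same ages. The authors deposited raw counts of reads per Ensembl gene for 54532 genes, without normalization or filtering; the submitters' processing notes name STAR and the build mm10, with versions not given in the sources used here. Names and positions came from GENCODE release M21 (GRCm38), in which 54495 of the identifiers were found. Total counts per library were 16361877 to 21049389 in the 12 libraries compared, and depth limits genes of under about 0.183 CPM (3 counts).

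The ages were compared with edgeR 4.0.16 (TMM normalization, filterByExpr, quasi-likelihood test, Benjamini-Hochberg adjustment over all genes tested, two-sided) in R 4.3.3, and the difference of the intervals as an interaction in a fit of 12 libraries. The standard error is the size of the log2 fold change divided by the square root of F. CPM are normalized over all 24 libraries. Tests were checked on simulated data. Alternatives were DESeq2 1.42.0, RLE normalization, library totals only, no low-count filter, at least 10 counts in every library, all libraries in one fit, a replicate block, and each library left out. Plots and lists used Python 3.11.15.

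The comparison, the gene lists and the motifs were chosen with earlier results of these data known, and the lysosome list after its values were seen. The rule for named genes took the 10 with the smallest p in each direction among named genes averaging 2 CPM or more whose groups did not overlap, the 4 members of each list with the smallest p, every SASP and BCL-2 family member, the 5 with the smallest p in each direction of the difference, and leading markers. Of the 220 genes it takes, 109 are named, and these and 24 others were chosen after their values were seen. Lists were described without a set test. Leaving the macrophage markers out of other lists was an alternative added after seeing the data.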

Additional observations from a re-analysis of the deposited data

Results flagged for a closer look

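The summed macrophage markers were higher in every treated ovary of 9 months than in every treated ovary of 6 months, and lower in every natural aging ovary of 9 months than in every one of 6 months. The log2 ratio of the group means was 0.88 in treated and -0.28 in natural aging ovaries, a difference of 1.15 that was not itself tested. Among the genes named, Irf8 was higher in treated and lower in natural aging ovaries (difference 1.44), and Vwa5b1 (-2.15) and Ppp1r16b (-1.06) were lower in treated and higher in natural aging ovaries, each without overlap. These 3 genes were among those named for the smallest p in that difference, so their opposite courses are no separate support. None of these 3 genes passed an adjusted p of 0.05 for the difference in edgeR (adjusted p = 0.196, 0.241 and 0.291). Of 16745 genes compared, 78 (0.466%) moved in opposite directions without overlap. The share that unrelated intervals would give was not worked out, so this count is no evidence of genes with opposite courses. Groups of 3 were given no formal test for single outlying samples, although each library was left out of the fits in turn.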

How the results depend on the processing

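Of the 133 genes named, 119 kept their direction in every alternative in which they were tested, and of 46 lists 28 kept the sign of their median; 29 lists had a median above 0, and 23 to 31 under the alternatives. RLE normalization, library totals, at least 10 counts in every library and one fit of all libraries called 0 genes in the treated interval. The number called there was 540 without a low-count filter, 414 with DESeq2 and 0 to 133 with an ovary left out. In natural aging it was 424 without a filter, 359 with DESeq2 and 0 to 583 with an ovary left out (583 without the first 9-month ovary), and for the difference of the intervals it was 204, 99 and 0 to 31 (31 without that ovary). At an unadjusted p under 0.05, 2870 genes differed in the treated interval without a filter and 1178 (without the second 6-month ovary) to 2666 (without the second 9-month ovary) with an ovary left out. Whether the replicate numbers pair the ovaries was not settled. The deviations of same-numbered treated ovaries from their group means correlated at 0.0513, -0.0109 and 0.212, and those of differently numbered ones at -0.234 to 0.189. In natural aging the same-numbered ovaries correlated at 0.269, 0.214 and 0.0567, and the differently numbered ones at -0.251 to 0.0419. With the numbers as a replicate block, 3 genes were called in the treated interval (Gpnmb, Lgals3 and Col11a1), 1 in natural aging and 0 for the difference, and the named genes that changed sign were Tnfrsf18 (-0.00488), Il1b (0.0456), Cd3e (-0.0859), Plin4 (-0.89). With an ovary left out, the log2 fold changes that crossed 0 ranged over Cd163 -0.57 to 0.18, Igfbp3 -0.56 to 0.21, Cxcl10 -0.0128 to 0.38, Tnfrsf18 -0.19 to 0.32, Mmp9 -0.14 to 0.0606, Il1b -0.99 to 1.32, Cd3e -0.55 to 0.39, Pecam1 -0.15 to 0.0667, Bcl2l2 -0.0802 to 0.0901, Bax -0.0824 to 0.15, Bad -0.18 to 0.0623, Bik -0.13 to 0.28, Bcl2l11 -0.11 to 0.19, Plin4 -1.95 to 0.79. The causes were not tested.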

Other observations

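Of the 32 interferon response genes, 14 were higher and 18 lower in treated ovaries, with 4 higher and 0 lower at an unadjusted p under 0.05. Without the first 6-month ovary these numbers were 1 higher and 5 lower. In 7 of the genes the treated interval was lower than the natural aging interval at that p for the difference, against 3.97% of all genes. Complex I genes of the respiratory chain were higher in 29 of 36, with a median of 0.10, but in 9 of 36, with a median of -0.06, without the third 9-month ovary, and 0 had an unadjusted p under 0.05 in edgeR or were called by DESeq2. Ribosomal protein genes were lower in 58 of 78, in 28 of 78 without the first 9-month ovary and in 77 of 78 without the third. Histone transcripts, most of which lack the poly(A) tail that mRNA selection uses, had a median of -0.82 over the 15 tested in treated ovaries and of 0.84 in natural aging. The treated median was -0.40 without the third 6-month ovary and -1.12 without the third 9-month ovary, and -0.03 without a low-count filter. Of the 15, 5 lay under the low-count cut in at least 1 ovary of 9 months and 0 in an ovary of 6 months. The median therefore rests in part on genes selected by that cut. With at least 10 counts in every ovary, 4 were higher and 6 lower, with a median of -0.48. Senescence and p53 target genes were higher in 15 of 20, with a median of 0.25 in treated and -0.15 in natural aging ovaries. The treated median ranged from 0.10 (without the third 9-month ovary) to 0.37 (without the second), and the number higher at an unadjusted p under 0.05, 3 in all ovaries, ranged from 1 to 6.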
